A study of Mus musculus with 2 samples.

Results

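Genes of the transforming growth factor beta (TGF-beta) pathway and genes that this signal is known to switch on were followed on 2 two-colour microarrays of polarized mouse lymphocytes. The set holds 10 genes: the ligand gene Tgfb1, the receptor gene Tgfbr1, the signal carrier gene Smad3, the inhibitor genes Ski, Skil, Smad7, Pmepa1 and Ldlrad4, and the target genes Itgae and Tgfbi. A probe belonged to the set when its annotation named exactly 1 of these symbols, whatever its value. This gave 21 of the 36547 probes and 9 of the 17501 genes measured. Smad7 was not analysed here. Itgae had 7 probes, Tgfbr1 had 3, Tgfbi, Pmepa1, Ski and Skil had 2 each, and Smad3, Tgfb1 and Ldlrad4 had 1 each.

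On the first array, RNA of Th17-polarized lymphocytes carried the dye Cy5 and RNA of Th0 lymphocytes carried Cy3. The second array set RNA of Th1-polarized lymphocytes, in Cy5, against RNA of Th0 lymphocytes, in Cy3. Every population came from what the labels call a TRP-1 mouse, and the age, the number of animals and whether the populations shared an animal are not given in the sources used here. Th0 is the usual name for cells activated without a lineage-directing set of cytokines, and the cytokines in each culture are not given in the sources used here. Each comparison had 1 array, with no replicate and no dye swap, so no value was tested, and the number of arrays limits the precision. Where an SD is given, it is taken over different probes of 1 gene and does not measure the spread between samples. Levels are not given by ratios, so the identity of the cells could not be checked by whether their defining markers were present.

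TGF-beta 1 is secreted in a latent form and, once released, binds a pair of receptor kinases, of which Tgfbr1 passes the signal to Smad2 and Smad3. These join Smad4, enter the nucleus and bind DNA, while Ski and Skil hold target genes down and Smad7, Pmepa1 and Ldlrad4 dampen the signal in a feedback loop. In mouse T cells TGF-beta is known to take part in the start of both the regulatory and, with interleukin 6, the Th17 programme, and to restrain Th1 differentiation.

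Values are the deposited log2 ratios, where a difference of 1 is 2-fold, with the sign as deposited. Titles and dyes name the polarized cells over Th0, but the table states no numerator, so the direction is not settled. If the order of the titles holds, genes on the negative side were less abundant in polarized than in Th0 cells; if the order is the reverse, they were more abundant. As landmarks, Il17a, the cytokine gene that names the Th17 lineage, lay at −5.37 on the Th17 and Th0 array and at 0.29 on the Th1 and Th0 array. Interferon gamma's gene, Ifng, had −0.83 on the Th17 and Th0 array and −2.02 on the Th1 and Th0 array. Il17a on the Th17 array and Ifng, the Th1 cytokine gene, on the Th1 array thus both lay on the negative side. Under the order of the titles, each would be less abundant in its own lineage than in Th0 cells, and under the reverse order more abundant. Which order holds was not tested. The statements below on which genes shared a side with these landmarks on 1 array hold under either reading.

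On the DNA level, signalling Smads are known to bind the short element CAGAC and its palindromic form GTCTAGAC. RefSeq promoters of 300 bases, from 250 before to 50 after the start, matched 5 of the 10 genes (build GRCm38.p6), and 2 of them, Tgfbi and Tgfbr1, held CAGAC on either strand. The element was in 49.6% of all 32851 promoters of that length, and GTCTAGAC, which does not contain CAGAC, was in 0.21% of them and in 0 of the 6 promoters of these genes. Shown first is the promoter of Tgfbi, a target gene with a large value below (chr13:56609336-56609635, plus strand), 5′ to 3′, with the 2 matches in capitals, both as the reverse complement of CAGAC and starting 239 and 85 bases before the start site. The promoter of Ski (chr4:155222486-155222785, minus strand), a gene with a like value on both arrays, holds neither element. Tgfbr1, which also held CAGAC, had means of −0.13 on the Th17 and Th0 array and −0.35 on the Th1 and Th0 array. A link between the element and the array values was not tested.
Tgfbi: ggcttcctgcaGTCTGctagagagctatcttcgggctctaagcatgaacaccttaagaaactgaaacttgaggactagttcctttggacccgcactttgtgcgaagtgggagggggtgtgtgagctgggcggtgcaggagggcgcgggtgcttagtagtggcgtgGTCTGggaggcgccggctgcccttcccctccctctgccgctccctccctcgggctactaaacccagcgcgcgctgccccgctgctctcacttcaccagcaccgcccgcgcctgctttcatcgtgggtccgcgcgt
Ski: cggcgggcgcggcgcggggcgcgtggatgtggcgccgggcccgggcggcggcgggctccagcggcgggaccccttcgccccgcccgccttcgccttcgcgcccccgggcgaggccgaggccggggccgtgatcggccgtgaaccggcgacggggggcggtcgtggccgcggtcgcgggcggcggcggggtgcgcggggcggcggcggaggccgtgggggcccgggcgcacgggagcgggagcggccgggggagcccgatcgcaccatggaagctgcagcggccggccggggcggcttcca
A match is a run of letters and was not tested for binding.

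Itgae encodes CD103, the alpha chain of an integrin that binds E-cadherin on epithelial cells and that TGF-beta is known to induce in T cells. On the Th17 and Th0 array its 7 probes lay at −2.75, −2.67, −2.32, −2.09, −2.02, −1.79 and −1.65. On the Th1 and Th0 array the same probes, in the same order, lay at 1.01, 1.07, 0.85, 0.82, 0.38, −0.41 and 0.87. Every probe was more than 2-fold to the negative side on the Th17 and Th0 array, on the side of Il17a, and 6 of 7 were on the positive side of the Th1 and Th0 array, opposite to Ifng. The ranges of the 2 arrays did not overlap. How often this held over all genes was not counted, so it describes these probes alone. The mean was −2.19 ± 0.42 (4.55-fold) on the Th17 and Th0 array and 0.66 ± 0.52 (1.57-fold) on the Th1 and Th0 array (SD, n = 7 probes). Only 0.96% of the genes lay lower than Itgae on the Th17 and Th0 array, against 92.0% on the Th1 and Th0 array.

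The Itgae probes were annotated to 2 RefSeq transcripts. The 4 probes of the first transcript alone lay between −2.75 and −2.09 on the Th17 and Th0 array and between 0.82 and 1.07 on the Th1 and Th0 array. The 2 probes of the second transcript alone lay at −1.79 and −1.65 on the Th17 and Th0 array and at −0.41 and 0.87 on the Th1 and Th0 array, so the 1 probe with opposite sign was among them. The probe shared by both transcripts lay at −2.02 on the Th17 and Th0 array and 0.38 on the Th1 and Th0 array. All probes thus gave the Th17 and Th0 array the negative side, and those of the first transcript gave the larger values. Itgb7, the beta chain that pairs with CD103, lay at 0.25 on the Th17 and Th0 array and 0.18 on the Th1 and Th0 array, near 0 on both. Cdh1, the gene of its ligand E-cadherin, lay at 0.67 on the Th17 and Th0 array and at 3.01 on the Th1 and Th0 array, each from 1 probe.

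Tgfbi encodes a secreted matrix protein, named for its induction by TGF-beta and also made by macrophages. Its 2 probes lay at −2.34 and −1.70 on the Th17 and Th0 array, a mean of −2.02 (4.06-fold). On the Th1 and Th0 array the same 2 probes lay at 0.39 and 0.06, a mean of 0.22. Both Tgfbi probes were more than 2-fold to the negative side on the Th17 and Th0 array and close to 0 on the Th1 and Th0 array. The small positive mean became −0.029 with the array centred on control genes, so its side on the Th1 and Th0 array is not settled. It became 1.07, past 2-fold, with centring on the most repeated value, so its size there is not settled either.

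Pmepa1 and Ldlrad4 encode related membrane proteins that are known to bind receptor-activated Smads and to be induced by the signal they dampen. The 2 Pmepa1 probes lay at −2.11 and −1.04 on the Th17 and Th0 array and at −0.52 and −0.29 on the Th1 and Th0 array. The means were −1.58 (2.99-fold) for the Th17 and Th0 array and −0.41 (1.33-fold) for the Th1 and Th0 array. Ldlrad4, with 1 probe, lay at −1.80 (3.47-fold) on the Th17 and Th0 array and −0.22 (1.17-fold) on the Th1 and Th0 array. Both feedback genes were thus at least 2-fold to the side of Il17a on the Th17 array, and under 1.5-fold from 0 on the Th1 array, where centring on the most repeated value turned them to 0.44 (Pmepa1) and 0.63 (Ldlrad4).

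Ski and Skil encode related co-repressors that sit on Smad complexes. The 2 Ski probes lay at −1.58 and −0.94 on the Th17 and Th0 array and at −1.14 and −0.89 on the Th1 and Th0 array. Ski was the 1 gene of the set at least 2-fold from 0 on both arrays, with a mean of −1.26 (2.39-fold) on the Th17 and Th0 array and −1.01 (2.02-fold) on the Th1 and Th0 array. The value on the Th1 and Th0 array lay just past 2-fold and became −0.90 when the array was centred on its median. With centring on the most repeated value Ski lay at −0.83 on the Th17 and Th0 array and −0.17 on the Th1 and Th0 array, under 2-fold on both. Skil, which TGF-beta is known to induce in other cell types, lay at −0.74 and −0.39 on the Th17 and Th0 array and at 0.49 and −0.09 on the Th1 and Th0 array. Its mean was −0.56 on the Th17 and Th0 array and 0.20 on the Th1 and Th0 array, under 1.5-fold from 0 on both. With centring on the most repeated value Skil became 1.05 on the Th1 and Th0 array, past 2-fold.

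The genes of the ligand, the receptor and the signal carrier had small deposited values on both arrays. Tgfb1 lay at 0.13 on the Th17 and Th0 array and 0.23 on the Th1 and Th0 array, from 1 probe. Smad3, also with 1 probe, lay at −0.39 on the Th17 and Th0 array and −0.43 on the Th1 and Th0 array. The 3 probes of Tgfbr1 did not share a sign: they lay at −0.42, −0.13 and 0.15 on the Th17 and Th0 array and, in the same order, at 0.31, −0.55 and −0.83 on the Th1 and Th0 array. All 3 genes were under 1.5-fold from 0 on both arrays as deposited. The side of Smad3 and Tgfbr1 on both and of Tgfb1 on the Th1 and Th0 array turned under 1 of the 3 centrings tried. With centring on the most repeated value Tgfb1 lay at 1.08 on the Th1 and Th0 array, past 2-fold.

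**Figure D1:**
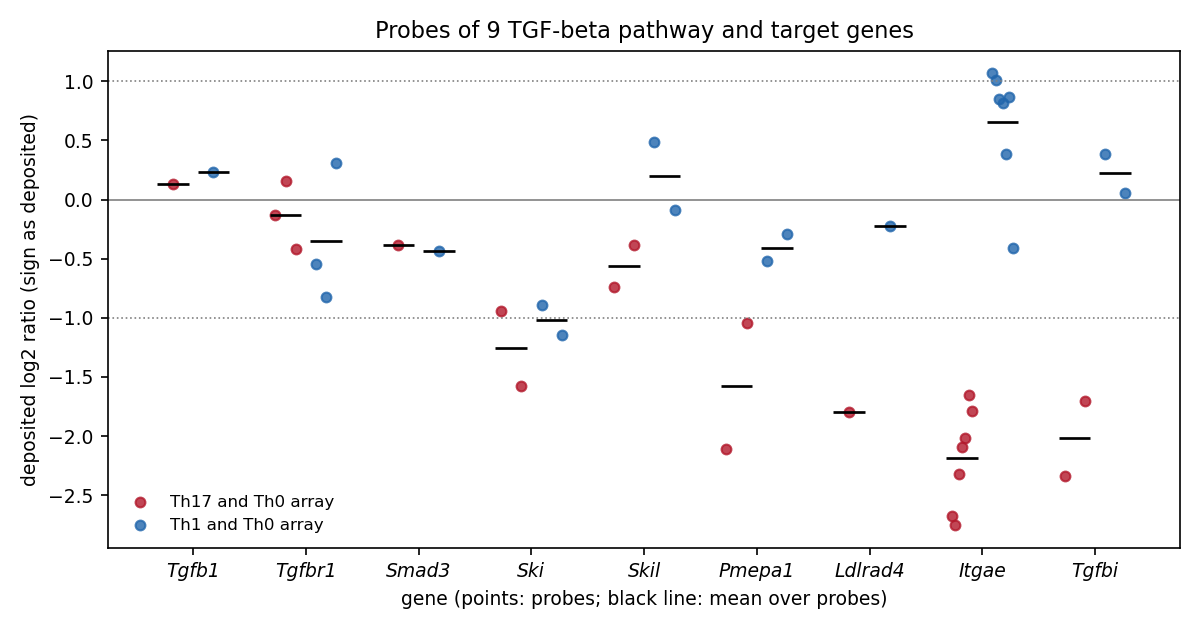
Deposited log2 ratio (y axis, sign as deposited) of each probe of the 9 genes measured (x axis), with the Th17 and Th0 array in red to the left and the Th1 and Th0 array in blue. Points are probes, black lines are means over probes and dotted lines mark 2-fold; the 7 red Itgae points lie between −2.75 and −1.65, below all 7 blue ones.

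As a set, 5 of the 9 genes were at least 2-fold to the negative side on the Th17 and Th0 array, where 5.52% of all genes were, and 0 were at least 2-fold to the positive side, where 2.9% of all genes were. The 5 were Itgae, Tgfbi, Ldlrad4, Pmepa1 and Ski. The median of the 9 genes was −1.26, against −0.03 over all genes. On the Th1 and Th0 array 1 of 9, Ski, was at least 2-fold to the negative side, against 6.92% of all genes, and 0 to the positive side, against 3.27%. The median there was −0.22, against −0.08 over all genes, and 5 of the 9 genes lay below 0. How many of all genes lay below 0 was not counted. Of the pan T cell genes, 5 of 10 were at least 2-fold negative on the Th17 and Th0 array. The genes came into the set with these values already known, so the counts describe the set and are no evidence of their own.

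Th17 and Th1 cells were then set against each other as the log2 ratio of the Th17 array minus that of the Th1 array, which assumes 1 common Th0 RNA on the 2 arrays, a point the labels leave unstated, and 1 order of the channels in both ratios. Itgae, Tgfbi, Ldlrad4 and Pmepa1 differed by −2.84 (7.16-fold), −2.24 (4.73-fold), −1.57 (2.98-fold) and −1.17 (2.25-fold). All 7 Itgae probes differed by more than 2-fold, between −3.77 and −1.38, a wider range than on either array alone. The 2 Tgfbi probes differed by −2.73 and −1.76 and the 2 Pmepa1 probes by −1.59 and −0.75, so 1 Pmepa1 probe did not reach 2-fold. Skil differed by −0.76, with probes at −1.22 and −0.29, while Ski, Tgfb1, Smad3 and Tgfbr1 differed by −0.24, −0.10, 0.05 and 0.22. The pooled SD between probes of a gene was 0.52 for this difference. By their own probes the SD was 0.84 for Itgae, 0.69 for Tgfbi and 0.60 for Pmepa1, while Ldlrad4, with 1 probe, had none. These SDs do not measure the spread between samples.

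In the difference 4 of 9 genes were at least 2-fold to the negative side, where 3.61% of all genes were, and 0 to the positive side, where 4.53% of all genes were. The share of genes lying lower was 0.31% for Itgae, 0.64% for Tgfbi, 1.54% for Ldlrad4 and 2.66% for Pmepa1. The targets Itgae and Tgfbi and the feedback genes Pmepa1 and Ldlrad4 were thus at least 2-fold apart between the arrays, Skil lay between, and Tgfb1, Tgfbr1, Smad3 and Ski were under 1.5-fold apart. Centring on control genes moved the difference of Pmepa1 to −0.89, under 2-fold. At a lower bar of 1.5-fold in either direction, 5 of the 9 genes passed on the Th17 and Th0 array, against 20.9% of all genes, and 2 of 9 on the Th1 and Th0 array, against 26% of all genes. In the difference 5 of 9 passed, against 20.5% of all genes.

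**Figure D2:**
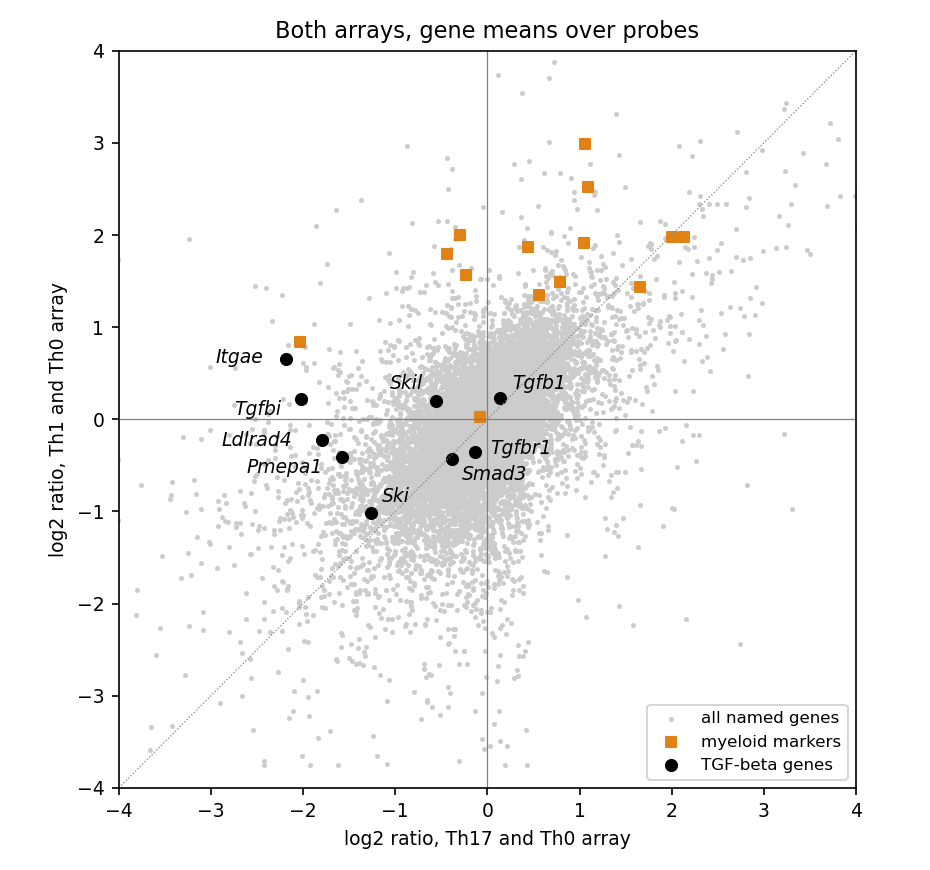
Log2 ratio on the Th17 and Th0 array (x axis) against that on the Th1 and Th0 array (y axis), as means over probes, for all named genes (grey), markers of myeloid cells (orange squares) and the 9 TGF-beta genes (black, named). The dotted diagonal marks equal values, and Itgae and Tgfbi lie far above it on the left. Itgae lies next to Cd14, the 1 myeloid marker at least 2-fold negative on the Th17 and Th0 array. Ski lies near the diagonal, and 76 genes fall outside the axes, which end at 4 on each side.

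Markers of other cell types also differed between the arrays, and their part in the values of Itgae and Tgfbi was not tested. Over all genes, 2.9% were at least 2-fold positive and 5.52% negative on the Th17 and Th0 array. On the Th1 and Th0 array these shares were 3.27% and 6.92%, and in the difference 4.53% and 3.61%. Of 15 myeloid markers 14 were measured. On the Th17 and Th0 array 6 of these were at least 2-fold positive and 1 negative, with a median of 0.68 and a range from −2.04 to 2.14. On the Th1 and Th0 array 12 were at least 2-fold positive, 0 negative, with a median of 1.83 and a range from 0.03 to 2.98. The myeloid median was thus on the side opposite to Itgae and Tgfbi on the Th17 and Th0 array, but on their side in the difference, at −1.15 with 7 of 14 at least 2-fold negative. All 8 mast cell and basophil markers were measured, with a median of 0.97 and a range from −0.05 to 2.31 on the Th17 and Th0 array, where 4 were at least 2-fold positive. On the Th1 and Th0 array all 8 were at least 2-fold positive, with a median of 2.52 and a range from 1.82 to 3.31, and 6 of 8 were at least 2-fold negative in the difference (median −1.81). The defining markers of both cell types had ratios alone, so whether any was near 0 in level was not measured. In RNA of a whole culture, fewer cells of a type and less RNA per cell cannot be told apart.

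Of 10 pan T cell genes, 8 lay below 0 on the Th17 and Th0 array, the side of Itgae and Tgfbi. The share of all genes below 0 was not counted, and the median over all genes there was −0.03. The part of the pan T cell genes in the values of Itgae and Tgfbi was not tested either. Of 11 such genes 10 were measured. Of these, 5 were at least 2-fold negative on the Th17 and Th0 array (5.52% of all genes) and 3 on the Th1 and Th0 array (6.92%). At least 2-fold positive were 0 on either array (2.9% and 3.27% of all genes). The medians were −0.71 on the Th17 and Th0 array, −0.61 on the Th1 and Th0 array and 0.16 in the difference. With centring on the most repeated value these 3 medians became −0.28, 0.24 and −0.26. Cd28, at 1.31, was the 1 gene 2-fold apart in the difference. B cell markers had medians of 0.14 on the Th17 and Th0 array, −0.07 on the Th1 and Th0 array and 0.14 in the difference, over 8 of 9 genes. For the 8 markers of CD8 T cells and NK cells the medians were −0.27 on the Th17 and Th0 array, −0.35 on the Th1 and Th0 array and 0.41 in the difference.

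The genes whose pair of values was most like that of Itgae, by straight-line distance in log2 units over the 2 arrays, were Sirpb1a, Il1b, Cd14, Mcemp1 and Gatm, at distances of 0.16 to 0.24. Among them Cd14 lay at −2.04 on the Th17 and Th0 array and at 0.84 on the Th1 and Th0 array, and Il1b, the interleukin 1 beta gene, at −2.01 on the Th17 and Th0 array and 0.61 on the Th1 and Th0 array. Cd14 is a receptor of monocytes and macrophages. On the Th17 and Th0 array it was the 1 myeloid marker of 14 at least 2-fold negative. There 5 of the 14 lay below 0, Cd14 among them, and 6 were at least 2-fold positive (2.9% of all genes). In the difference 11 of the 14 lay below 0, and 7 were at least 2-fold negative (3.61% of all genes). The share of all genes below 0 was not counted. The median over all genes was −0.03 on the Th17 and Th0 array and 0.04 in the difference. Tgfbi came 11th in that order, at a distance of 0.46. With 2 values per gene such nearness is a description alone.

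The rest of the pathway was taken from lists written with earlier results of these data known. Over all genes, 5.52% were at least 2-fold negative and 2.9% positive on the Th17 and Th0 array. On the Th1 and Th0 array these shares were 6.92% and 3.27%, and in the difference 3.61% and 4.53%. Of 13 other genes for ligands and their release 12 were measured. On the Th17 and Th0 array 1 was at least 2-fold negative and 1 positive, on the Th1 and Th0 array 1 was 2-fold negative, and 0 were 2-fold apart in the difference. The positive gene was Itgav, an integrin chain that helps to release latent TGF-beta, at 1.27 on the Th17 and Th0 array and 0.44 on the Th1 and Th0 array. Tgfb2, a second ligand, was the negative gene, at −1.22 on the Th17 and Th0 array and −1.12 on the Th1 and Th0 array. Its 2 probes did not share a side on the Th17 and Th0 array, at −2.75 and 0.31, and the ratio of the first matched a weaker channel of at most 5 signal units.

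Of 12 further receptors of the family 11 were measured, and 2 were at least 2-fold negative on each array, against 5.52% of all genes on the Th17 and Th0 array and 6.92% on the Th1 and Th0 array, and 0 in the difference. Tgfbr3, or betaglycan, a co-receptor that presents the ligand, lay at −1.87 on the Th17 and Th0 array and −1.42 on the Th1 and Th0 array. Bmpr1b, a receptor for bone morphogenetic proteins, lay at −1.63 on the Th17 and Th0 array and −1.02 on the Th1 and Th0 array, but 2 of its 3 probes matched a weaker channel of at most 5 units on the Th17 and Th0 array. Its value there was −0.48 without those probes and −0.91 as the median over probes, both under 2-fold. Tgfbr2, the partner that activates Tgfbr1, lay at 0.76 on the Th17 and Th0 array and 0.49 on the Th1 and Th0 array, with a difference of 0.26.

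For the counts that follow, the shares of all genes were 5.52% negative and 2.9% positive on the Th17 and Th0 array. They were 6.92% and 3.27% on the Th1 and Th0 array, and 3.61% and 4.53% in the difference. All 13 other Smads and partners were measured. Of these Zfyve9, the Smad anchor also called SARA, was at least 2-fold negative on the Th17 and Th0 array, at −2.04, and in the difference, at −1.28. Those means rest on 1 of 3 probes, at −6.62 on the Th17 and Th0 array, and the median over its probes was 0.08 on that array and 0.10 in the difference. Smad2 and Smad4, which work with Smad3, lay at 0.15 and −0.01 on the Th17 and Th0 array and at 0.25 and 0.05 on the Th1 and Th0 array. Of 10 other inhibitors, among them Smad6, Smurf1 and Smurf2, 0 were 2-fold apart on either array or in the difference, with a range of −0.58 to 0.70 on the Th17 and Th0 array and −0.77 to 0.82 on the Th1 and Th0 array.

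Of 12 targets known from epithelial cells and fibroblasts 11 were measured. On the Th17 and Th0 array 0 were at least 2-fold negative, close to the share of 5.52% over all genes. On each array 1, Cdkn2b, was at least 2-fold positive, at 2.81 on the Th17 and Th0 array and 2.68 on the Th1 and Th0 array, and it encodes a cell cycle inhibitor. The shares of all genes on that side were 2.9% and 3.27%. In the difference 2 of the 11 targets were at least 2-fold negative, against 3.61% of all genes. Fn1, the fibronectin gene, differed by −1.44, with 4 probes that ranged from −4.13 to 0.40, and Klf10, an early TGF-beta response factor, by −1.08 from 1 probe. Centring on control genes moved the difference of Klf10 to −0.80, which leaves 1 gene at least 2-fold negative.

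Of 6 genes that TGF-beta is known to help induce in T cells 5 were measured, and 3 were at least 2-fold negative on the Th17 and Th0 array (5.52% of all genes), 0 on the Th1 and Th0 array (6.92%) and 3 in the difference (3.61%). Nt5e, the ectoenzyme CD73, lay at −2.36 on the Th17 and Th0 array and 0.09 on the Th1 and Th0 array. Gpr15, a homing receptor for the large intestine, lay at −2.28 on the Th17 and Th0 array and −0.63 on the Th1 and Th0 array. Il9, a cytokine gene, lay at −4.33 on the Th17 and Th0 array and −0.69 on the Th1 and Th0 array. The side of all 3 on the Th1 and Th0 array depended on the centring: Gpr15 turned to 0.22 and Il9 to 0.16 with the most repeated value, and Nt5e to −0.16 with control genes. Foxp3, the master regulator of regulatory T cells, and Maf, a transcription factor of several helper lineages, did not reach 2-fold. Foxp3 lay at 0.44 on the Th17 and Th0 array and 0.54 on the Th1 and Th0 array, and Maf at −0.56 on the Th17 and Th0 array and −0.68 on the Th1 and Th0 array.

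All 11 genes that TGF-beta is known to hold down in T cells were measured, and on the Th17 and Th0 array 7 were at least 2-fold positive, against 2.9% of all genes, and 1 negative, against 5.52%, with a median of 1.28. On the Th1 and Th0 array 2 were positive (3.27% of all genes) and 3 negative (6.92%), with a median of −0.59 that turned to 0.26 with centring on the most repeated value. In the difference 7 were positive (4.53% of all genes) and 1 negative (3.61%), with a median of 1.60. Prf1, the perforin gene, and Eomes, a relative of Tbx21, were positive on both arrays and close to 0 in the difference. Prf1 lay at 3.24 on the Th17 and Th0 array and 3.43 on the Th1 and Th0 array, and Eomes at 2.33 on the Th17 and Th0 array and 2.29 on the Th1 and Th0 array, with 2 Eomes probes that differed widely. Genes on the positive side in the difference were Gata3, the Th2 master regulator, at 2.77 in the difference, Gzmb, the granzyme B gene, at 2.36, Tbx21, the Th1 master regulator, at 2.12, Fasl, the death ligand gene, at 2.07, Gzma, the granzyme A gene, at 1.72, Il12rb2, part of the interleukin 12 receptor, at 1.60, and Ifng at 1.19. Of these, Ifng lay on the negative side of both arrays, at −0.83 on the Th17 and Th0 array and −2.02 on the Th1 and Th0 array. On the Th17 and Th0 array Tbx21 lay at 0.87 and Gata3 at 1.28. Their values on the Th1 and Th0 array were −1.25 and −1.49. The 1 gene at least 2-fold negative in the difference, at −1.91, was Il2, the T cell growth factor gene. It lay at −2.50 on the Th17 and Th0 array and −0.59 on the Th1 and Th0 array.

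**Figure D3:**
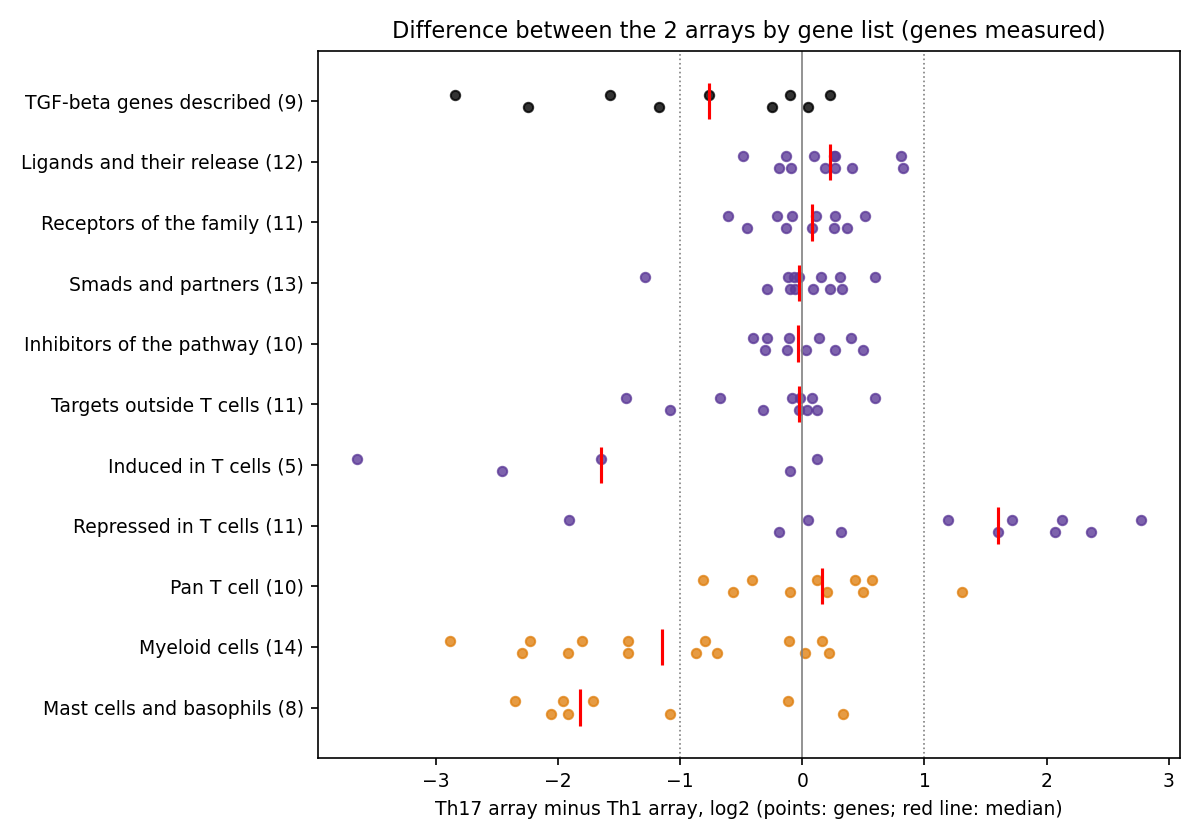
Difference between the log2 ratios of the Th17 and the Th1 array (x axis, log2) for the genes of each list (rows, number measured in brackets). Points are genes, red lines are medians and dotted lines mark 2-fold; the medians of the TGF-beta genes (−0.76), of genes induced in T cells (−1.65), of myeloid (−1.15) and of mast cell markers (−1.81) lie to the left, and that of genes repressed in T cells (1.60) to the right.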

How the data were processed

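RNA of polarized and Th0 cells was compared on 2 arrays, from 500 ng of total RNA each, per the labels. The deposited table holds 1 log2 ratio per probe and array, as the authors processed it. Its scale was read from the values, and the scanner, background correction, normalisation and numerator are not given in the sources used here. Probe medians were −0.05 on the Th17 and Th0 array and −0.11 on the Th1 and Th0 array, so centring is also unknown, and the 2 columns correlated at r = 0.53 over probes. Of the probes, 26926 carried 1 gene in an old platform annotation, 203 several and 9418 were unnamed here; gene numbers matched current RefSeq genes (GRCm38.p6, for names) for 26774. Log2 ratios of one-gene probes were averaged for each gene with Python 3.11.15 and pandas 2.3.3. The most repeated value of an array, −0.43 for the Th17 and −0.85 for the Th1 array, was taken as equal signals. A channel signal of 5 units or fewer was called where a ratio to that value matched whole numbers within 0.00011 log2. This held for 0 of the 21 probes of the set. No test was run, as each comparison had 1 array; genes at least 2-fold apart were counted. Averaging, counting and channel matching were tested on simulated data. Named were all genes of the set, genes of the pathway lists at least 2-fold on an array or in the difference, Il17a, Ifng and the 5 genes nearest to Itgae. Itgb7, Tgfbr2, Smad2, Smad4, Smad6, Smurf1, Smurf2, Foxp3, Maf, Cd14 and Cd28 were added after their values were seen. The members and lists were chosen with earlier results of these data known. Alternatives covered centring, the probe rule, the fold and low signal.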

Additional observations from a re-analysis of the deposited data

Results flagged for a closer look

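Of 31 genes, the 9 of the set and the 22 of the pathway lists that were at least 2-fold on an array or in the difference, 9 lay on opposite sides of 0 on the 2 arrays and at least 2-fold apart. With 1 array each, this difference was not tested, and for 5 of the 9 the opposite sides depended on the centring, as given at the end. The 22 pathway genes had entered by being at least 2-fold somewhere. The share of all genes on opposite sides and at least 2-fold apart was not counted, so the 9 describe these genes alone. For Itgae and Tgfbi, on the negative side on the Th17 and Th0 array and the positive side on the Th1 and Th0 array, the differences were −2.84 and −2.24. Nt5e, Fn1 and Klf10 had the same order of sides, with differences of −2.46, −1.44 and −1.08. The 4 probes of Fn1 did not share a side on either array. They ranged from −1.43 to 0.17 on the Th17 and Th0 array and from −0.72 to 2.70 on the Th1 and Th0 array. Gata3, Tbx21, Fasl and Il12rb2 had the opposite order, with differences of 2.77, 2.12, 2.07 and 1.60. These genes, Nt5e and Klf10 had 1 probe each. Centring on control genes turned the Th1 and Th0 value of Tgfbi to −0.029 and of Nt5e to −0.16. Centring on the most repeated value turned the Th17 and Th0 value of Klf10 to 0.057 and the Th1 and Th0 values of Fasl and Il12rb2 to 0.27 and 0.26.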

How the results depend on the processing

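The 5 genes of the set counted on the Th17 and Th0 array became 4 or stayed 5 under the 7 alternatives, and the 4 counted in the difference ranged from 3 to 5. The 1 gene counted on the Th1 and Th0 array became 0 with centring on the array median, 4 with centring on the most repeated value, 2 with the largest probe value and 2 at 1.5-fold. Centring on the most repeated value raises every value by 0.43 on the Th17 and 0.85 on the Th1 array and lowers the difference by 0.42, and centring on control genes changes these by 0.02, −0.25 and 0.28, so sides of genes near 0 are not settled. The 22 pathway genes at least 2-fold anywhere became 36 with centring on the most repeated value and 34 at 1.5-fold. Without probes of low signal Tgfb2 reversed to 0.31 on the Th17 and Th0 array and Zfyve9 to 0.25 in the difference; with the median over probes Zfyve9 reversed to 0.081 on the Th17 and Th0 array and 0.10 in the difference. These follow from leaving out or down-weighting 1 probe. Of 162 comparisons of the set's values with an alternative, 149 moved by less than the SD between probes, 13 moved by more and 0 called values changed side. Many of these outcomes were fixed in advance. Low signal was called for 0 probes of the set, and the median over 1 or 2 probes equals their mean. Each centring shifts all genes of an array by the same amount. The counts are therefore no measure of robustness. No paired analysis was possible because each comparison had 1 array. A probe with 1 or few signal units sets a limit to its ratio, and the signal of each channel was not analysed here.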
